A study of Mus musculus with 9 samples.

Results

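The genes described here are 10 scavenger and alternative-activation genes of macrophages. They are the scavenger receptor genes Msr1, Marco, Cd36, Scarb1, Cd68 and Olr1, the alternative-activation receptor genes Mrc1, Cd163 and Stab1, and the chemokine gene Cxcl13. They were taken by symbol from a table of 55401 genes, and all 10 were found in it. RNA came from RAW264.7, a mouse macrophage line raised from a tumour induced by Abelson leukemia virus in a male, labelled wild type. Cells were treated for 24 h, as given in the sample labels, with DMSO (the vehicle), with DMSO and LPS (a bacterial wall component that drives inflammatory, or M1, activation), or with LPS and Skatole (an indole compound, LPS + Ska). Each group had 3 columns, numbered 5, 6 and 7. The RNA-seq doses are not given in the labels. The methods section of the study gives a longer treatment than the labels do, whereas its results text gives 24 h. The labels do not say whether columns came from separate cultures, so p-values measure only the spread between these columns, which may be technical. RAW264.7 is a single line, so the values describe that line and not tissue macrophages.

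Scavenger receptors bind modified lipoproteins, lipids, microbial surfaces and dying cells, and carry them into the cell. Class A receptors (Msr1 and Marco) are trimers with a collagen-like stem. Class B receptors (Cd36 and Scarb1) cross the membrane at both ends of the chain and move fatty acids, oxidized lipoproteins and cholesterol. Mrc1, Cd163 and Stab1 are receptors used as markers of alternatively activated (M2) macrophages, which clear glycoproteins, haemoglobin and cell debris. Cxcl13 is a chemokine that draws B cells through its receptor Cxcr5.

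Expression was given as TPM, a gene's share of the transcripts of a library, corrected for length and scaled to the same sum in each. How many reads lie behind a value is unknown from TPM, and counting error was not estimated. In the LPS and LPS + Ska groups the columns were tied. Replicate 5 was compared with the mean of replicates 6 and 7 in genes above 0 in all 3 columns of a group. It equalled that mean within 1e-05 TPM in 17950 of 17950 genes with LPS and in 17658 of 17658 with LPS + Ska. Genes with a column at 0 were not counted. Such an equality held in at most 0.0636% of genes in DMSO. Each of these groups was therefore counted as 2 independent values. They were recovered as replicate 5 plus (value 1) and minus (value 2) 0.5 times the difference of replicate 6 from it. The factor of 0.5 was assumed. Where the tie holds, it leaves the 2 values 0.5 times as far apart as columns 6 and 7. The SDs below, and the p-values of the main fit, rest on this narrower spread. A fit that took columns 6 and 7 as the 2 values was not run. Means and SDs below use n = 3 for DMSO and n = 2 for the other groups. Of the macrophage markers, 10 of 10 had a mean of at least 1 TPM. Their summed level was 12540 to 13828 TPM in DMSO, 6962 to 7178 TPM in LPS and 13324 to 13525 TPM in LPS + Ska, and Lyz2, a lysozyme gene that can share reads with its near copy Lyz1, held most of it. Of the markers of other cells, 0 of 6 fibroblast, 0 of 5 B cell, 0 of 5 endothelial, 1 of 6 T cell (Lck) and 4 of 6 osteoclast genes reached that mean, and Cd3e and Pax5 were at 0 in every column. The osteoclast genes summed to 65.8 to 76.7 TPM in DMSO, 95.7 to 100.2 TPM in LPS and 84.3 to 89.5 TPM in LPS + Ska. The part of these marker differences in the results was not tested.

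Of the 10 genes, 7 had a value above 0 in some column and 5 passed the filter of a mean of at least 1 TPM over the group means, which 12812 genes passed. These 5 were Cd68, Msr1, Cd36, Scarb1 and Stab1. Olr1 and Mrc1 stayed under the filter. Marco, Cd163 and Cxcl13 were listed at 0 in every column. None of 76 cytosolic ribosomal protein genes and none of 14 housekeeping genes was listed at 0 in any column.

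**Figure D1:**
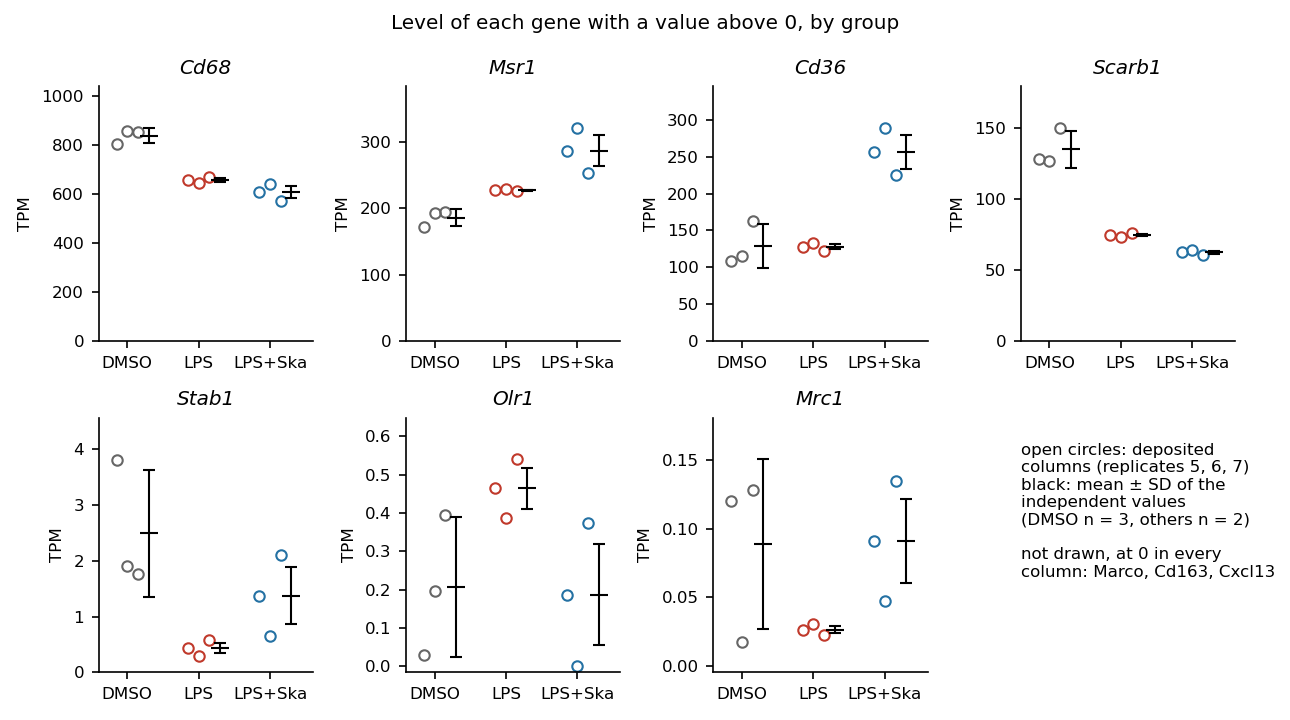
TPM (y axis, from 0) of the 7 genes with a value above 0, by group (x axis). Open circles are the 3 deposited columns of a group and black bars the mean ± SD of the independent values (n = 3 in DMSO, n = 2 in LPS and LPS + Ska). Cd36 sits between 225 and 289 TPM in LPS + Ska, above its columns in both other groups, and Scarb1 sits between 60.5 and 76.0 TPM in LPS and LPS + Ska, under its DMSO columns.

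The levels, which TPM makes comparable between genes per length, differed widely within the group. Cd68 was the highest in all 3 conditions and ranked 145 of the 12812 genes tested in DMSO, 177 in LPS and 213 in LPS + Ska. In DMSO, Msr1 ranked next (823), above Scarb1 (1218) and Cd36 (1279), whose columns overlapped. In LPS, Cd36 (rank 1290) lay above Scarb1 (rank 2277) without overlap. In LPS + Ska, Msr1 (rank 495) and Cd36 (rank 563) overlapped, and Scarb1 had rank 2610. Stab1 was near the bottom of the genes tested, at ranks 11323, 12743 and 11918.

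**Figure D2:**
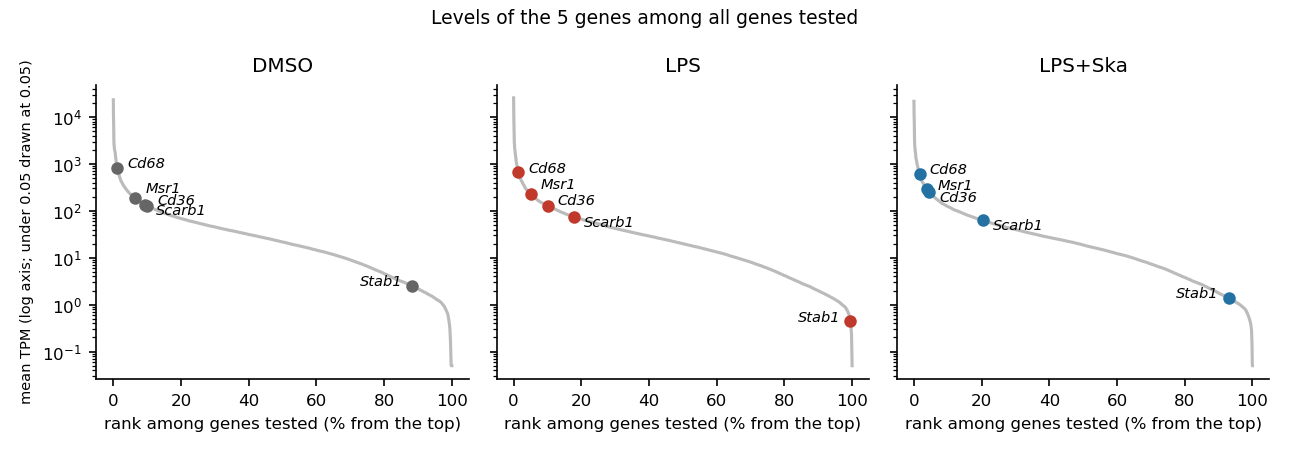
Mean TPM (y axis, log scale) of the genes tested against their rank from the top in percent (x axis), for DMSO, LPS and LPS + Ska. Grey lines are the 12812 genes and points the 5 scavenger genes tested. Cd68 lies within the top 1.66% in each group, Scarb1 moves from the top 9.51% in DMSO to the top 20.4% in LPS + Ska, and Stab1 lies at 88.4% to 99.5%.

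Calls were made at a limma adjusted p (Benjamini-Hochberg, over all genes tested) under 0.05 together with a fold change above 1.5 or below 0.67, and log2 fold changes refer to TPM + 1. In LPS compared with DMSO, the question was how M1 activation moved the genes, and 2 of the 5 were called lower (Scarb1 and Stab1), beside 19.8% of all genes tested. Stab1 passed the filter only through its DMSO level, which favours a lower call, so nothing is read from this count. None of the 5 was called higher, against 12.8% of all genes, although Msr1 was higher at the adjusted p alone (1 of 5, against 24.9% of all genes). In LPS + Ska compared with LPS, which asks what Skatole added to LPS, Cd36 rose and none fell. Among all genes, 2.83% were called higher and 5.01% lower. At an adjusted p alone, Msr1 was higher as well, and still none was lower, against 5.9% and 12.7% of all genes. At an unadjusted limma p under 0.05, 1 of the 5 (Scarb1) was lower and 2 were higher there, against 23.3% and 10.7% of all genes. At that threshold 1 was higher and 3 lower in LPS compared with DMSO (27.1% and 35.5% of all genes), and 2 were higher and 2 lower in LPS + Ska compared with DMSO (23.3% and 41.3%). In LPS + Ska compared with DMSO, Cd36 and Msr1 rose and Scarb1 fell, beside 11.4% and 25% of all genes. At an adjusted p alone, 3 of the 5 were lower in LPS compared with DMSO (33% of all genes), and 2 were higher and 2 lower in LPS + Ska compared with DMSO (21.7% and 39.1%). Values of the groups did not overlap, higher and lower, for 1 and 3 of the 5 genes in LPS compared with DMSO (32.7% and 41.1% of all genes), for 3 and 2 in LPS + Ska compared with LPS (25.7% and 47.4%) and for 2 and 3 in LPS + Ska compared with DMSO (26.7% and 45.5%). These counts and shares use the recovered values. By the deposited columns Stab1 does overlap in LPS + Ska compared with DMSO. Its LPS + Ska column 7 (2.11 TPM) exceeds DMSO columns 6 and 7 (1.92 and 1.76 TPM). The shares are high in all genes, so the absence of overlap sets none of the 5 genes apart. The 3 comparisons share columns, so their calls are not separate evidence. Cell numbers do not enter TPM, and RNA per cell and the makeup of the culture cannot be told apart in bulk samples.

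**Figure D3:**
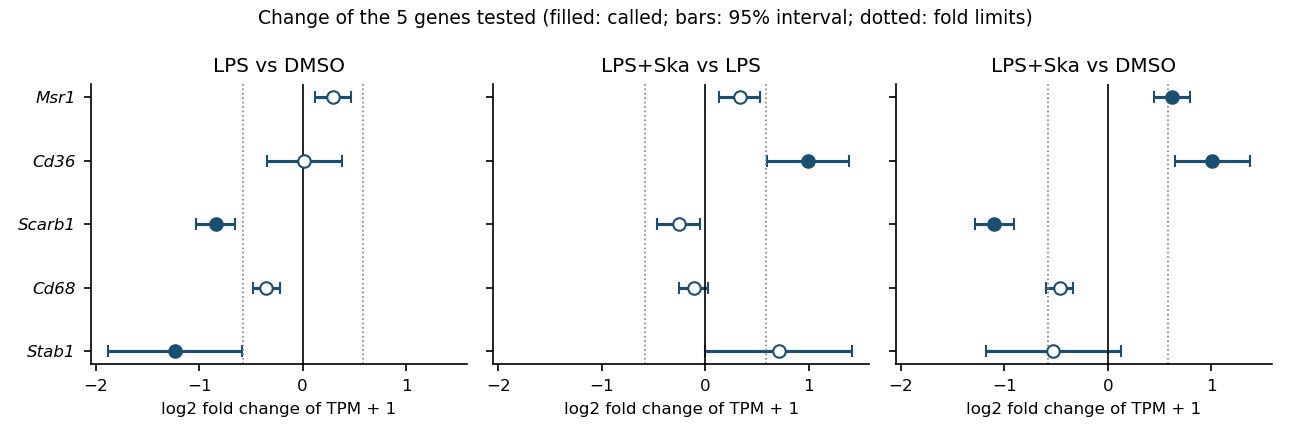
Log2 fold change of TPM + 1 (x axis) of the 5 genes tested (rows), in the 3 comparisons (panels). Bars are 95% intervals from limma, filled points are called and dotted lines mark the fold limits of 1.5 and 0.67. The interval of Cd36 lies above 0.60 for LPS + Ska compared with LPS, whereas that of Stab1 spans 0 there.

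Msr1 (ENSMUSG00000025044, chromosome 8, 39581685 to 39642673, minus strand, GRCm38) encodes macrophage scavenger receptor 1, which takes up modified LDL and bacterial lipid A. Its level was 171, 192 and 194 TPM in the DMSO columns 5, 6 and 7. It was 227, 229 and 226 TPM in LPS. In LPS + Ska it was 287, 320.1 and 253 TPM. The groups followed each other upward without overlap. The mean went from 186 ± 12.5 TPM in DMSO to 227 ± 0.956 TPM in LPS and 287 ± 23.7 TPM in LPS + Ska. The log2 fold change was 0.29 for LPS compared with DMSO (SE 0.077, limma adjusted p = 0.0118), inside the fold limit. It was 0.33 for LPS + Ska compared with LPS (95% interval 0.14 to 0.53, limma adjusted p = 0.031), again inside the limit. For LPS + Ska compared with DMSO it was 0.62 (SE 0.077, limma adjusted p = 2.2e-04), just past the limit. Without DMSO column 5 that value was 0.57, and without value 1 of LPS + Ska it was 0.54, both inside the limit. The adjusted p of 0.031 rose to as much as 0.171 when a value was left out.

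Marco (ENSMUSG00000026390, chromosome 1, 120474538 to 120505024, minus strand), the other class A receptor and a binder of bacteria and particles, was listed at 0 in all 9 columns. No change can be read for it in any comparison.

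Cd36 (ENSMUSG00000002944, chromosome 5, 17781690 to 17888801, minus strand) encodes a fatty acid translocase that also binds oxidized LDL and apoptotic cells. It was the only one of the 10 called between LPS + Ska and LPS. In DMSO it was at 108, 115 and 163 TPM, with column 7 well above the other two. In LPS it was at 128, 133 and 123 TPM, inside the DMSO range. In LPS + Ska it was at 257, 289 and 225 TPM, and the lowest of these exceeded every column of both other groups. The group means were 129 ± 29.7, 128 ± 3.63 and 257 ± 22.6 TPM. LPS alone gave a log2 fold change of 0.01 against DMSO (95% interval -0.35 to 0.38, limma adjusted p = 0.946), and the interval still holds changes of up to 0.38. LPS + Ska gave 1.00 against LPS (SE 0.173, 95% interval 0.60 to 1.39, limma adjusted p = 0.0081), a 2.01-fold ratio of means. Against DMSO it gave 1.01 (SE 0.158, limma adjusted p = 7.5e-04).

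The size of the Cd36 increase over LPS varied little, whereas its call depended on single values. Leaving out each value in turn gave 0.91 to 1.09. The adjusted p passed 0.05 without value 1 of LPS (0.0584), without value 2 of LPS (0.0627) and without value 1 of LPS + Ska (0.0537). Each of these fits leaves 1 value in a group, which is assumed to vary like the rest.

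The genes that lay nearest to Cd36 in the plane of its log2 fold changes for LPS compared with DMSO and LPS + Ska compared with LPS were Rpl3-ps2, Prdx1 and Ndufa3, at distances of 0.042, 0.062 and 0.10 among the 12812 genes. Prdx1, a peroxide-reducing enzyme, had means of 860.1, 885 and 1700 TPM in DMSO, LPS and LPS + Ska. Ndufa3, a subunit of respiratory complex I, had 15.4, 15.9 and 35.2 TPM. Rpl3-ps2 carries the name of a ribosomal protein pseudogene and may share reads with its parent gene, so its value is uncertain. Without value 1 of LPS, the adjusted p of Ndufa3 for LPS + Ska compared with LPS was 0.0534. The likeness rests on 2 fold changes only and says nothing about function.

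Promoter sequences from RefSeq (GRCm38.p6), of 250 bases before to 50 after an annotated start, matched 8 of the 10 genes. Cd36 and Cd68 are shown because Cd36 was the gene called between LPS + Ska and LPS, whereas Cd68 was the most abundant of the 10 and was not called there. Both read 5′ to 3′ on the gene's strand. Capitals mark matches on either strand to any of 7 motifs. GCGTG is the core to which the aryl hydrocarbon receptor AhR binds. GAGGAA is the core bound by PU.1, a factor of the myeloid lineage. TGACTCA is the site of AP-1, the Fos and Jun dimer. TGACNNNGC is the core of the antioxidant response element, and its first letters can overlap an AP-1 site. The TATA box was searched as TATAAA, at which the general machinery assembles. The CCAAT box was searched by the letters of its name. The GC box, which binds Sp1 and related factors, was searched as GGGCGG.
Cd36, chr5:17835847-17836146, minus strand: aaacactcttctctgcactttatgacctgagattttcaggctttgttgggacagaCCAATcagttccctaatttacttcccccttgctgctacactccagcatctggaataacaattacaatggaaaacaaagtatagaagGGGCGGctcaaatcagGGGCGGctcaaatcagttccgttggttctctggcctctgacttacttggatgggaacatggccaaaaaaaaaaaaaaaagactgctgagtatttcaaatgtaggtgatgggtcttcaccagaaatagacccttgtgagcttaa
Cd68, chr11:69666121-69666420, minus strand: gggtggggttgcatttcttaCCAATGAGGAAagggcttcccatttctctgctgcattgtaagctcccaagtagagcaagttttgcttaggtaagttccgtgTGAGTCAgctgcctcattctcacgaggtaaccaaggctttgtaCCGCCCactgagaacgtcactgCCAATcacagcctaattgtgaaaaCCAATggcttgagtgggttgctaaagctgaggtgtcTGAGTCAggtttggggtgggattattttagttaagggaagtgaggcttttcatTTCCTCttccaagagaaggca
The Cd36 window held CCAAT at -195 and the GC box at -109 and -93 from the start, and no match to the other 5 motifs. Its start is 179 bases from the nearest of 6 starts annotated by GENCODE, and other starts of Cd36 were not searched. The Cd68 window held 2 PU.1 cores, 2 AP-1 motifs, 3 CCAAT motifs and 1 GC box, with a PU.1 core directly after the first CCAAT. Its start is 17 bases from the nearest GENCODE start. Over 32851 promoters of this length, the CCAAT box was found in 37.4%, the GC box in 35.7%, the PU.1 core in 28.3%, the AP-1 site in 5.20%, the AhR core in 32.4%, the antioxidant response element core in 12.4% and the TATA box in 13.6%. A match is a run of letters and was not tested as a binding site.

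Scarb1 (ENSMUSG00000037936, chromosome 5, 125277087 to 125341094, minus strand) encodes the class B receptor for HDL, which exchanges cholesterol with it. Its level was 128, 127 and 150 TPM in DMSO. It was 74.6, 73.1 and 76.0 TPM in LPS, below every DMSO column. In LPS + Ska it was 62.3, 64.2 and 60.5 TPM, lower again without overlap. The means were 135 ± 12.8, 74.6 ± 1.02 and 62.3 ± 1.30 TPM. Scarb1 fell by 0.84 on the log2 scale with LPS (SE 0.082, limma adjusted p = 8.3e-05). It fell by 1.10 with LPS + Ska compared with DMSO (SE 0.082, limma adjusted p = 1.9e-05). Between LPS + Ska and LPS the difference of -0.26 did not pass (95% interval -0.46 to -0.05, limma adjusted p = 0.086). The same difference had an adjusted p of 0.024 over the 9 tied columns, and its fold stayed inside the limit.

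The ratio of the class B receptors within a column does not depend on the scaling between columns. Cd36 to Scarb1 was 0.845, 0.908 and 1.09 in the DMSO columns 5, 6 and 7. It was 1.71, 1.82 and 1.61 in LPS and 4.12, 4.50 and 3.72 in LPS + Ska. No column of a group reached the range of another. As means of the independent values these were 0.947 ± 0.127, 1.72 ± 0.0720 and 4.12 ± 0.276. The ratio of Msr1 to Cd68 was also higher from group to group, going from 0.221 ± 0.00758 to 0.346 ± 0.00597 and 0.471 ± 0.0202. Both ratios are descriptions, formed after the values were known, and were not tested.

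**Figure D4:**
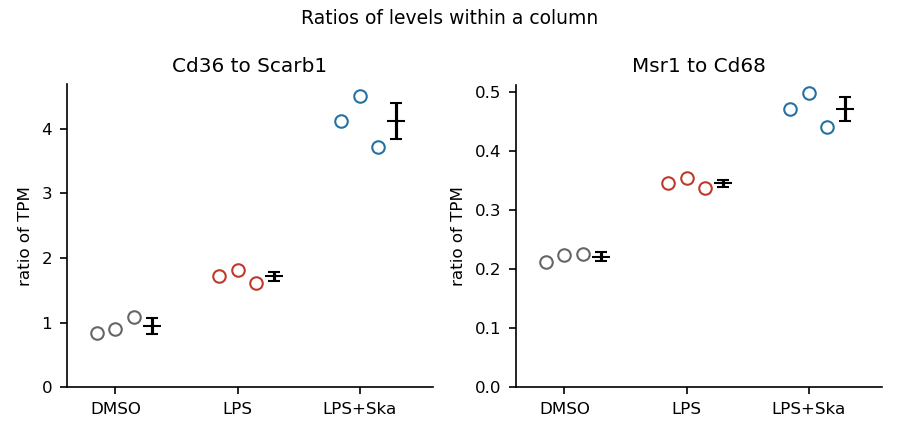
Ratio of TPM within a column (y axis, from 0) of Cd36 to Scarb1 and of Msr1 to Cd68, by group (x axis). Circles are the 3 deposited columns and black bars the mean ± SD of the independent values (n = 3 in DMSO, n = 2 in LPS and LPS + Ska). Cd36 to Scarb1 is at most 1.09 in DMSO, 1.61 to 1.82 in LPS and 3.72 to 4.50 in LPS + Ska.

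Cd68 (ENSMUSG00000018774, chromosome 11, 69664213 to 69666153, minus strand) encodes a heavily glycosylated protein of late endosomes and lysosomes that serves as a macrophage marker. It was at 806, 857 and 855 TPM in DMSO. It was at 657, 645 and 669 TPM in LPS and at 608, 642 and 574 TPM in LPS + Ska. Both LPS groups were below DMSO, and the recovered values of LPS + Ska lay under those of LPS. The means were 839 ± 28.8, 657 ± 8.59 and 608 ± 24.2 TPM. The log2 fold change was -0.35 for LPS compared with DMSO (SE 0.056, limma adjusted p = 9.3e-04) and -0.46 for LPS + Ska compared with DMSO (SE 0.056, limma adjusted p = 1.9e-04). Both were inside the fold limit. LPS + Ska compared with LPS gave -0.11 (95% interval -0.25 to 0.03, limma adjusted p = 0.233).

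Olr1 (ENSMUSG00000030162, chromosome 6, 129485244 to 129507165, minus strand) encodes LOX-1, a lectin-like receptor for oxidized LDL. It was at 0.030, 0.196 and 0.394 TPM in DMSO, at 0.464, 0.388 and 0.541 TPM in LPS and at 0.187, 0 and 0.374 TPM in LPS + Ska. All columns were well under 1 TPM. With no filter on low values its log2 fold change of TPM + 1 was 0.29 for LPS compared with DMSO (limma adjusted p = 0.226) and -0.31 for LPS + Ska compared with LPS (limma adjusted p = 0.329).

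Among the alternative-activation receptors, Mrc1 (ENSMUSG00000026712, chromosome 2, 14229392 to 14332057, plus strand) encodes the mannose receptor CD206. It was at 0.120, 0.017 and 0.128 TPM in DMSO, at 0.027, 0.030 and 0.023 TPM in LPS and at 0.091, 0.048 and 0.134 TPM in LPS + Ska. The lowest DMSO column lay under all the others. Its mean was 0.0910 ± 0.0306 TPM in LPS + Ska and 0.0887 ± 0.0619 TPM in DMSO. With no filter, LPS + Ska compared with LPS gave a log2 fold change of TPM + 1 of 0.09 (95% interval -0.06 to 0.23, limma adjusted p = 0.432). At these levels a change could not be detected. Cd163 (ENSMUSG00000008845, chromosome 6, 124304656 to 124330527, plus strand), the receptor for haemoglobin bound to haptoglobin, was listed at 0 in every column.

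Stab1 (ENSMUSG00000042286, chromosome 14, 31139013 to 31168641, minus strand) encodes stabilin-1, which clears oxidized LDL and matrix fragments. It was at 3.81, 1.92 and 1.76 TPM in DMSO. It was at 0.439, 0.301 and 0.576 TPM in LPS and at 1.38, 0.650 and 2.11 TPM in LPS + Ska. DMSO column 5 stood above all the others, and the LPS columns were the lowest. Stab1 passed the filter only through its DMSO level, and such a gene had to be lower elsewhere. The means were 2.49 ± 1.14, 0.439 ± 0.0972 and 1.38 ± 0.515 TPM. Its log2 fold change with LPS was -1.23 (95% interval -1.89 to -0.58), given as a description for that reason. The fit with no filter takes every gene above 1e-05 TPM in at least 1 value. There the same fold change had a limma adjusted p of 0.0331. LPS + Ska compared with LPS gave 0.71, which did not pass (95% interval -0.0041 to 1.42, limma adjusted p = 0.149). Against DMSO, LPS + Ska gave -0.53 (limma adjusted p = 0.141), which came to -0.27 without DMSO column 5 and -0.30 without value 1 of LPS + Ska. Its exons overlap those of Nt5dc2 on the other strand, and whether counting used strand is not given in the sources used here. Reads in the shared part may therefore be counted for either gene, and the size of that part was not measured. Nt5dc2 was at 47.3 ± 1.42, 18.6 ± 1.11 and 20.6 ± 0.0429 TPM in the 3 groups.

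Cxcl13 (ENSMUSG00000023078, chromosome 5, 95956951 to 95961068, plus strand) was listed at 0 in every column. Of 4 receptors listed for it, 2 were tested. Cxcr3, a chemokine receptor best known from T cells, rose by 0.73 on the log2 scale with LPS (limma adjusted p = 8.3e-04). Cxcr5, the main receptor of Cxcl13, was at 3.38 ± 0.936, 2.22 ± 0.414 and 3.34 ± 0.505 TPM and was called in none of the 3 comparisons. The median log2 fold change of the pair was 0.15, 0.21 and 0.37 for LPS compared with DMSO, LPS + Ska compared with LPS and LPS + Ska compared with DMSO.

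Related genes were described from 6 further lists. Medians over all genes were -0.06, -0.09 and -0.17 in the same 3 comparisons. The shares of calls over all genes, as given above, were 12.8% higher and 19.8% lower with LPS. They were 2.83% and 5.01% in LPS + Ska compared with LPS, and 11.4% and 25% in LPS + Ska compared with DMSO. Of 8 tested among 20 other scavenger receptors, 7 fell with LPS and none rose (median -0.95). The largest falls were those of Cxcl16, a transmembrane chemokine that binds oxidized lipoproteins (-2.18), Clec7a, the beta-glucan receptor (-2.14), and Colec12, a collagen-stemmed receptor (-1.77). In the main scaling only Colec12 passed in LPS + Ska compared with LPS, at 0.73 (limma adjusted p = 0.0037), from 29.5 to 49.5 TPM (median 0.05), and with median-ratio scaling Cd14 was called higher too (0.65). Compared with DMSO, 1 rose (Cd14) and 7 fell (median -0.96).

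Of 13 tested among 28 alternative activation genes, 6 fell with LPS and none rose (median -0.39). Igf1, a growth factor gene, changed by -4.85, the regulator Klf4 by -3.25 and the lipid-sensing receptor Trem2 by -3.12. In LPS + Ska compared with LPS, Trem2 rose by 1.43 (limma adjusted p = 0.0020), Igf1 rose by 0.79 (limma adjusted p = 0.0163) and Il13ra1, a subunit of the IL-13 receptor, fell by 0.58 on the log2 scale (limma adjusted p = 0.0077), with a median of 0.13. Igf1 went from 0.0902 to 0.890 TPM, both under 1 TPM, against 30.6 TPM in DMSO. It passed the filter only through DMSO, as a gene that had to be lower elsewhere. With no filter its limma adjusted p was 8.4e-05 for LPS compared with DMSO and 0.0402 for LPS + Ska compared with LPS. Clec10a and Tgm2, also among the 6 lower with LPS, were likewise under 1 TPM there. Clec10a (6.72, 0.420 and 0.824 TPM in DMSO, LPS and LPS + Ska) also passed the filter only through DMSO. Nothing is therefore read from the count of 6. In LPS + Ska compared with LPS, Igf1 lost its call without either value of LPS or of LPS + Ska. Its log2 fold change there was 0.69 to 0.89 with each value left out in turn. Il13ra1 lost its call without value 1 or 2 of LPS (0.0996 and 0.0662), and its fold came inside the limit without value 2 of LPS + Ska (-0.57). LPS + Ska compared with DMSO had 0 higher and 6 lower (median -0.51), and these 6 again include Igf1 and Clec10a. Of the classical markers, Retnla and Chil3 were listed at 0 in every column, and Arg1 was under the filter at 0.405, 0.272 and 0.0407 TPM.

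Of 19 tested among 21 lipid handling genes, 3 rose and 9 fell with LPS (median -0.48). Fabp4, a fatty acid carrier, rose by 2.28 from 0.232 to 4.93 TPM (it passed the filter through LPS and LPS + Ska, and its limma adjusted p with no filter was 0.0020), while Pltp, which transfers phospholipids, changed by -1.80 and Mylip, which degrades the LDL receptor, by -1.58. In LPS + Ska compared with LPS, Lipa, the lysosomal acid lipase that frees cholesterol and fatty acids, rose by 0.90 (limma adjusted p = 8.6e-04), and the fatty acid receptor gene Ppard fell by 0.61 on the log2 scale (limma adjusted p = 0.029), with a median of -0.12. Ppard lost its call without each value of LPS and of LPS + Ska (0.0667 to 0.203). With median-ratio scaling Plin2, a lipid droplet protein gene, was called higher as well (0.63). Compared with DMSO, 3 were higher and 10 lower (median -0.62).

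Of 11 tested among 20 genes linked to apoptotic cell uptake, 4 fell with LPS and none rose (median -0.38). They included the integrin subunit gene Itgb5 (-1.71), the receptor gene Sirpa (-1.51) and Lrp1 (-1.13). The list was not limited to genes that promote uptake, so its counts give no direction of uptake. Dock1 and Elmo1, which together activate Rac during engulfment, fell by 1.33 and 0.66 on the log2 scale in LPS + Ska compared with LPS (limma adjusted p = 0.0011 and 0.0039; median -0.19). Elmo1 came inside the fold limit without value 2 of LPS + Ska (-0.55). Compared with DMSO, 7 were lower and 0 higher (median -0.78).

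Around the haemoglobin receptor gene Cd163, itself at 0, 8 of 10 haem genes were tested. With LPS, 5 fell and none rose (median -0.95), with Blvrb, a biliverdin reductase, at -2.37, the iron exporter Slc40a1 at -1.89 and the ferritin light chain Ftl1 at -1.71. Adding Skatole to LPS gave 4 of the 8 higher than LPS and none lower (median 0.59). Slc40a1 rose by 2.26 (limma adjusted p = 1.1e-04), from 2.41 to 15.4 TPM. Blvrb rose by 1.51 (limma adjusted p = 5.6e-04), Hmox1, the haem-degrading oxygenase, by 1.05 (limma adjusted p = 4.7e-04) and Ftl1 by 0.78 (limma adjusted p = 0.0022). Ftl1 is uncertain, since it has pseudogene copies that can share its reads. Compared with DMSO, 0 were higher and 3 lower (median -0.23).

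Of 13 tested among 16 transcription factor genes, 2 rose and 8 fell with LPS (median -0.81), with Klf4 at -3.25 and Tfeb, a regulator of lysosomal genes, at -2.44. In LPS + Ska compared with LPS, 1 of the 13 was called higher (median 0.04), a call that was lost when any value of either group was left out. With median-ratio scaling Ets2 was also called higher there (0.61). Nfe2l2 (Nrf2), Nr1h3 (LXRα) and Stat6 were not called there, at 0.04, 0.19 and -0.05. Pparg was at 0.208 ± 0.213 TPM in DMSO and listed at 0 in LPS and LPS + Ska, and Ahr, at 0.141, 0.0578 and 0.240 TPM, was under the filter. Compared with DMSO, 1 was higher and 8 lower (median -0.83).

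Where a list had 0 genes called, the counts at an unadjusted limma p under 0.05 were these. Higher with LPS (27.1% of all genes) were 1 of the other scavenger receptors, 0 of the alternative activation genes, 2 of the uptake genes and 0 of the haem genes. Lower in LPS + Ska compared with LPS (23.3% of all genes) were 2 of the other scavenger receptors, 1 of the haem genes and 3 of the transcription factor genes, and 2 of the uptake genes were higher (10.7% of all genes). Neither receptor of Cxcl13 passed there. Higher in LPS + Ska compared with DMSO (23.3% of all genes) were 0 of the alternative activation genes, 2 of the uptake genes and 3 of the haem genes.

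**Figure D5:**
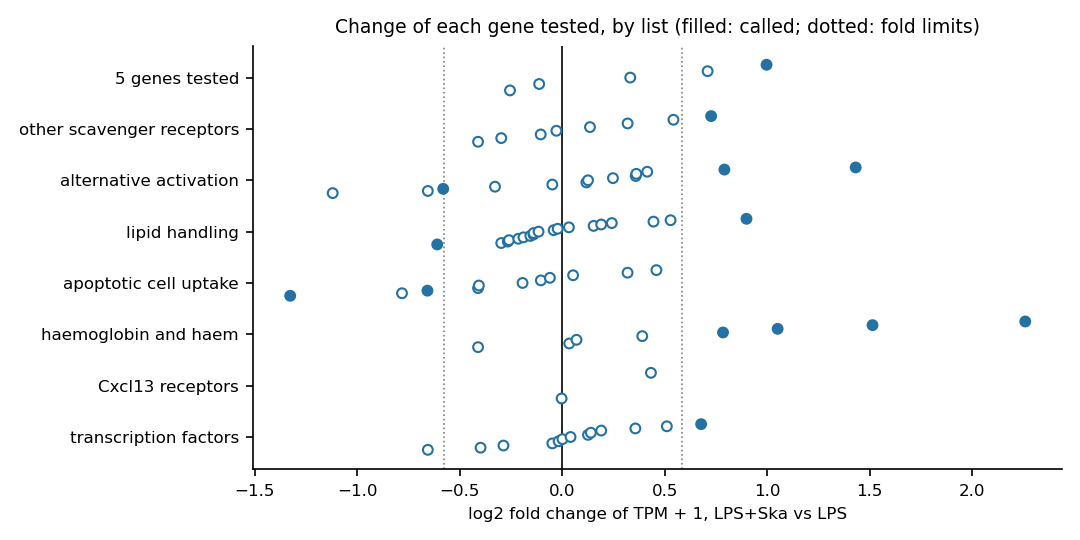
Log2 fold change of TPM + 1 for LPS + Ska compared with LPS (x axis) of each gene tested, with the 5 scavenger genes in the top row and 1 related list in each row below. Filled points are called and dotted lines mark the fold limits of 1.5 and 0.67. Cd36 is the filled point of the top row at 1.00, and the haem row has 4 filled points, all to the right.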

How the data were processed

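The data were RNA-seq values of the RAW264.7 line in 3 groups (DMSO, LPS, LPS + Ska), with 3 columns in each as labelled. The authors deposited TPM for 55401 Ensembl identifiers, of which 55141 matched a symbol. The submitters' processing notes name fastp 0.20.1, HISAT2 2.2.1, StringTie 2.0 and mm10, with no role or order given. Coordinates are those of GENCODE vM21 (GRCm38). As columns of LPS and LPS + Ska were tied, 7 values were fitted (3 DMSO columns and 2 recovered values for each other group). The lowest recovered value was -7.5e-08 TPM, and values below 0 were set to 0. limma 3.58.1 in R 4.3.3 (lmFit, eBayes with trend) was run on log2(TPM + 1) for the 12812 genes with a mean of at least 1 TPM over group means, with Benjamini-Hochberg adjustment over all of them. Promoter sequences came from RefSeq. Python 3.11.15 and matplotlib 3.10.9 were used for tables and plots.

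Named genes were the 10 genes and, of each list, the 3 with the largest absolute change among those called in LPS compared with DMSO and in LPS + Ska compared with LPS, with Pparg, Nr1h3, Nfe2l2, Ahr and Stat6 always named. The 3 genes nearest to a called member were named as well. A transcription factor gene that the rule would name is not reported here. Cd14, Cxcr5, Arg1, Retnla, Chil3, Lyz2, Lck, Cd3e, Pax5, Ftl1, Clec10a, Tgm2, Plin2, Ets2 and Nt5dc2 were named after their values were seen. The genes and lists were chosen with earlier results of these data known, so they are not independent evidence. Alternatives were the 9 deposited columns, those with a replicate block, a pseudocount of 0.1, no filter, a mean of at least 5 TPM, median-ratio scaling, an adjusted p alone and each value left out in turn. The numbers 5, 6 and 7 were not taken to pair samples, because deviations of same-numbered columns correlated at 0.385, 0.151 and 0.128 between LPS and LPS + Ska, whose columns are tied, and at -0.0294 to 0.0796 for the other 6 pairs.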

Additional observations from a re-analysis of the deposited data

How the results depend on the processing

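Over all alternatives, 195 of 207 values of the 5 tested genes kept their direction and their side of the call, 5 lost the call, 4 gained it by the removal of the fold limit and 3 turned direction. The 3 that turned were Cd36 in LPS compared with DMSO, at -0.10 without DMSO replicate 5, -0.05 without DMSO replicate 6 and -0.01 without value 1 of LPS, in a range of -0.10 to 0.19 over all values left out in turn. A further 506 values came from 39 changes of the list genes named by the rule and of the 3 genes nearest to Cd36. They cover LPS compared with DMSO and LPS + Ska compared with LPS only. Most of these genes were named because they were called, so calls gained by other list genes are not counted. Of the 506, 482 kept their direction and their side of the call, 21 lost the call and 3 turned direction. Nfe2l2 turned in LPS + Ska compared with LPS (-0.0077 without value 1 of LPS + Ska, range -0.0077 to 0.089). Stat6 turned there as well (0.053 with median-ratio scaling and 0.038 without value 2 of LPS + Ska, range -0.14 to 0.038). With an adjusted p alone, 1 of the 5 genes was higher in LPS compared with DMSO, 2 were higher in LPS + Ska compared with LPS and 2 were lower in LPS + Ska compared with DMSO. All genes then gave 3186 higher and 4226 lower, 756 and 1633, and 2778 and 5011 in the same order. With a mean of at least 5 TPM Stab1 was not tested, which left 1 gene lower with LPS. Median-ratio scaling moved the median of all genes from -0.06, -0.09 and -0.17 to 0.01, 0.0023 and -0.0030, and the share of calls that were higher from 39.3, 36.1 and 31.2% to 47.9, 54.4 and 49.2%. It gave 2183 genes higher and 2255 lower in LPS + Ska compared with DMSO, against 1455 and 3204. With it, Cd36 was at 1.10 and Msr1 at 0.44 against LPS, and no direction of the 5 genes changed, while Elmo1 (-0.56), Il13ra1 (-0.49) and Ppard (-0.52) lost their calls in LPS + Ska compared with LPS and Cd14, Plin2 and Ets2 gained theirs. Lower with LPS were then 5 in place of 7 other scavenger receptors, 5 in place of 6 alternative activation genes, 8 in place of 9 lipid handling genes and 7 in place of 8 transcription factor genes. In LPS + Ska compared with DMSO, 5 in place of 7 other scavenger receptors and 8 in place of 10 lipid handling genes were lower. The same held for 6 in place of 7 uptake genes and 7 in place of 8 transcription factor genes. Higher there were 4 in place of 3 lipid handling genes. Leaving out each value in turn gave 0 to 1 of the 5 genes higher in LPS + Ska compared with LPS, 1 to 2 higher in LPS + Ska compared with DMSO, and 146 to 428 and 169 to 761 of all genes higher and lower in LPS + Ska compared with LPS. With a replicate block over the 9 deposited columns Cd36 was at 0.99 (limma adjusted p = 0.0055) for LPS + Ska compared with LPS, and the block changed no call of the 5 genes. A pseudocount of 0.1 gave larger values for low genes, with Stab1 at -2.19 in LPS compared with DMSO and 1.42 in LPS + Ska compared with LPS, Fabp4 at 4.06 with LPS, and Igf1 at -7.35 with LPS and 2.39 in LPS + Ska compared with LPS. With no filter, the adjusted p of Msr1 in LPS + Ska compared with LPS was 0.076 and that of Ppard 0.0713. Limits are the 2 independent values in each of LPS and LPS + Ska and the assumed factor behind them. Others are the unknown depth behind TPM and the low levels of Stab1, Olr1 and Mrc1.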
